A study of Mus musculus with 18 samples.

Results

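The genes described are the tissue forms of enzymes of glycolysis, glycogen breakdown and the creatine phosphate system that muscle and brain use side by side. They were chosen by name, as the 10 symbols Ckm, Ckb, Eno2, Eno3, Aldoa, Pfkm, Pgam2, Pygm, Ldha and Ldhb, of 30869 symbols on the array. 9 of the 10 have a probe whose symbol matches, through 11 of the array's 45281 probes, because Pfkm has 3 and each of the others 1. Ldhb was matched to no probe and is not analysed here. RNA came from the mouse embryonic stem cell line ESD3 (strain 129s2/SvPas), which is kept on mouse embryo fibroblast feeder cells. WT control cells carried an shRNA against luciferase, and HPRT-knockdown cells an shRNA designed against human HPRT, the purine salvage enzyme whose loss the study set out to follow. Both populations were selected with puromycin after transduction. Each was sampled as undifferentiated ES cells, as spherical neural masses (SNM) and at the end of dopaminergic neuronal differentiation, which gives 6 conditions. RNA of replicate cultures was pooled into 1 sample per condition and hybridized to 3 arrays. SD, SE and p-values thus describe how repeatable the hybridizations were. They say nothing of variation among cultures or transductions, and with 3 arrays each mean is known only roughly.

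Vertebrates keep separate genes for the same metabolic step in different tissues. Creatine kinase moves a phosphate group between creatine and ATP and buffers ATP where demand changes quickly. Its muscle subunit is Ckm and its brain subunit Ckb. Glycogen phosphorylase (Pygm in muscle, Pygb in brain) releases glucose 1-phosphate from glycogen. Phosphofructokinase (Pfkm in muscle, Pfkp in platelets and brain, Pfkl in liver) catalyses the committed step of glycolysis, and aldolase (Aldoa in muscle and most other cells, Aldoc in brain) splits its product. Phosphoglycerate mutase (Pgam2 in muscle, Pgam1 elsewhere) and enolase (Eno3 in muscle, Eno2 in neurons, Eno1 in most cells) act further down the pathway. Ldha, lactate dehydrogenase A, turns pyruvate into lactate and is also a known target of the hypoxia response. In development many cells begin with the brain or general form, and skeletal muscle switches to the muscle form as it matures.

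The probes lie in genes on chromosome 7 (Ckm, Entrez gene 12715; Aldoa, 11674; Ldha, 16828), 11 (Eno3, 13808; Pgam2, 56012), 12 (Ckb, 12709), 6 (Eno2, 13807), 15 (Pfkm, 18642) and 19 (Pygm, 19309), so these genes do not form a cluster. The deposited annotation names no genome build, so no position is given for the probes. The 250 bases before the start of transcription are given here for the 4 muscle forms with the largest differences and for the 2 brain forms, from the RefSeq promoter table of build GRCm38.p6, which holds at least 1 window for 10 of the 10 symbols. Both strands were searched for the E-boxes CAGCTG and CACCTG, to which myogenic and other helix-loop-helix factors bind, for the MEF2 site, the CArG box and TATAAA. Capitals mark every match.
Ckm, chr7:19410844-19411093, plus strand: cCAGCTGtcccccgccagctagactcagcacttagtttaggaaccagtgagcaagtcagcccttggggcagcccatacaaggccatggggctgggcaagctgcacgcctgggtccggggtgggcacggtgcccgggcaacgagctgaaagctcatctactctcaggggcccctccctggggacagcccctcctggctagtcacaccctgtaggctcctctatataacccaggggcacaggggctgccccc
Pgam2, chr11:5803797-5804046, minus strand: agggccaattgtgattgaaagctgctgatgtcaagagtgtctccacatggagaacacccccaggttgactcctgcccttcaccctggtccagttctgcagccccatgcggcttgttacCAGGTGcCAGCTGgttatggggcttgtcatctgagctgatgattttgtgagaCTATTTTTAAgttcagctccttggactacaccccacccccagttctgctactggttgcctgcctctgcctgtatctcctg
Eno3, chr11:70656926-70657175, plus strand: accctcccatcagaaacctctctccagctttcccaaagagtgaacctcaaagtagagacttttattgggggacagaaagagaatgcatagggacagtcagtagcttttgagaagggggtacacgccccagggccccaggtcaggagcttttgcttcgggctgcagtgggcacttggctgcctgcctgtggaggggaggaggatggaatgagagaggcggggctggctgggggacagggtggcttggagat
Pygm, chr19:6384158-6384407, plus strand: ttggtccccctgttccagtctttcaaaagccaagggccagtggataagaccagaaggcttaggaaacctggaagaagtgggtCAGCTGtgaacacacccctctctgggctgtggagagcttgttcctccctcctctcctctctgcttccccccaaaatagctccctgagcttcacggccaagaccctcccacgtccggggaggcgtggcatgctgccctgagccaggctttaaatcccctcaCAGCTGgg
Ckb, chr12:111672339-111672588, minus strand: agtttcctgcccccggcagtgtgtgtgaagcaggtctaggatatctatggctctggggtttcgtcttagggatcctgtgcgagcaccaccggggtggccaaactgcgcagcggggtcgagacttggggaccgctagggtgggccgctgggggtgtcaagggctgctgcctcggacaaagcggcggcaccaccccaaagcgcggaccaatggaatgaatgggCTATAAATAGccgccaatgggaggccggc
Eno2, chr6:124769674-124769923, minus strand: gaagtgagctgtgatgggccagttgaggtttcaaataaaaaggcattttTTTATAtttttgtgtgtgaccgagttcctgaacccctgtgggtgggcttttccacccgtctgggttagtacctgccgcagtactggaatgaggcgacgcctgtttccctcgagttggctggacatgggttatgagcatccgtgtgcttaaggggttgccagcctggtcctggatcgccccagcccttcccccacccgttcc

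The Pgam2 window holds 1 CAGCTG 125 bases and 1 CACCTG 132 bases before the start, and 1 MEF2 site 80 bases before it. The Pygm window holds 2 CAGCTG, at 168 and 8 bases, and the Ckm window 1, at 249 bases. The Eno3 window holds none of these sequences, although 1 E-box of the general form CANNTG lies at 81 bases. The Ckb window holds 1 MEF2 site at 29 bases, and TATAAA lies inside it. The Eno2 window holds TATAAA on the other strand at 201 bases and 1 CANNTG, of which CAGCTG and CACCTG are special cases. Among all 32851 windows of the same length, 13% hold CAGCTG, 17.2% CACCTG, 66.2% CANNTG, 2.92% a MEF2 site, 1.47% a CArG box and 12.4% TATAAA. A match describes letters in the window and not a bound site.

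At a detection p-value under 0.05 the arrays detected between 18827 and 22202 probes each. Hprt1, the target of the shRNA, averaged 12.04 ± 0.03 on the log2 scale in WT control and 7.95 ± 0.19 in knockdown cells at the ES stage (SD, n = 3). In limma it was 17-fold lower in knockdown cells at the ES stage, 3.39-fold lower at the SNM stage and 21.8-fold lower at the neuronal stage. Markers of other cells moved with the conditions. Of 18 skeletal muscle markers 17 are on the array, and their summed signal ran from 85645 to 105010 on WT control neuronal arrays against 1377.7 to 1531.1 on knockdown neuronal arrays. All 17 were detected on every WT control neuronal array. In knockdown neuronal cells 9 were, and Myog, Myod1, Ttn, Myh3, Tnnc2, Tnnt3, Casq2 and Chrna1 were not. Heart markers stayed low, with summed signals of 332.7 to 515.76 over all arrays.

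**Figure D1:**
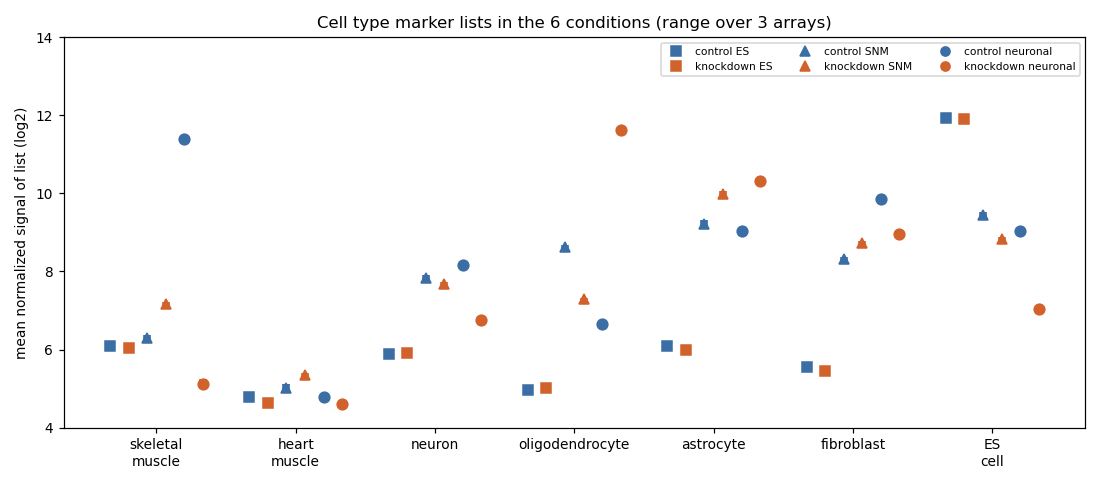
Mean normalized signal (log2, y axis) of 7 lists of cell type markers in the 6 conditions, blue for WT control and orange for HPRT-knockdown cells, with bars over the range of 3 arrays where it exceeds the symbol. Skeletal muscle markers reached 11.37 to 11.40 in WT control neuronal cells and 4.98 to 5.24 in knockdown neuronal cells, while oligodendrocyte markers lay at 6.65 to 6.67 and 11.59 to 11.63.

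Neuron markers were also lower in knockdown cells at the neuronal stage, with summed signals of 2580.4 to 2899.3 against 8576.8 to 10490 in WT control cells, and 7 of the 9 tested fell. All 10 oligodendrocyte markers rose, from summed signals of 7531.9 to 8883.9 to 60954 to 70659. Mog, Mobp and Opalin passed the detection filter only through the knockdown arrays, so only a rise was open to them. Among the neuron markers Tubb3 passed it only through the WT control arrays, so only a fall was open to it. Of 8 astrocyte markers 5 rose and 1 fell, 7 of 9 fibroblast markers fell, and 7 of 7 ES cell markers fell. In this comparison 27.4% of all probes tested were called. Markers of several cell types were thus detected in both populations at the neuronal stage, and the part of each type in the isozyme values was not tested. In RNA of a whole culture, fewer cells of a type and less RNA per cell cannot be told apart.

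Muscle creatine kinase, Ckm, was detected on the 3 WT control neuronal arrays and on none of the other 15. There its deposited signals were 1164.5, 857.84 and 943.56, against 58.65, 53.35 and 58.39 on the knockdown neuronal arrays. The normalized level was 9.86 ± 0.15 in WT control neuronal cells (SD, n = 3) and lay at background, between 4.24 and 4.31, in the remaining conditions. It was at least 34.6-fold lower in knockdown than in WT control neuronal cells. Muscle glycogen phosphorylase, Pygm, had the same set of detected arrays, with signals of 363.54, 256.63 and 325.29 in WT control neuronal cells and of 55.48 to 60.55 in knockdown neuronal cells. The difference was at least 9.06-fold. Both genes were tested here only because the WT control neuronal arrays detected them, so no p-value is given. Neither gene overlapped between the groups at this stage.

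**Figure D2:**
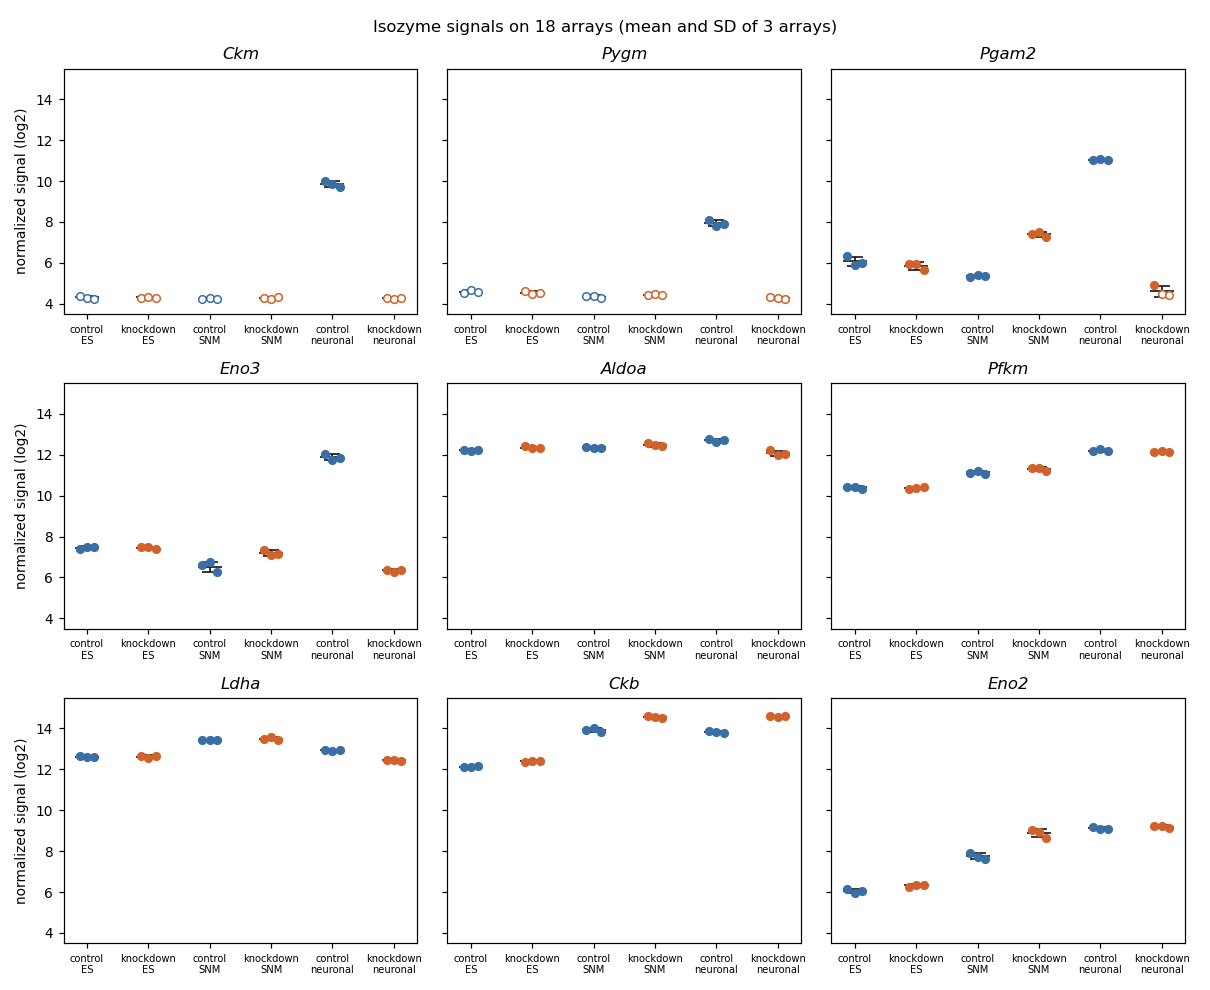
Normalized signal (log2, y axis) of the 9 measured isozymes on 18 arrays in 6 conditions (x axis), blue for WT control and orange for HPRT-knockdown cells. Filled points were detected at a p-value under 0.05, open points were not, and bars give the mean and SD of 3 arrays; Ckm and Pygm are filled in WT control neuronal cells alone.

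Pgam2 and Eno3 were detected in every condition of WT control cells and rose to high levels at the neuronal stage. Muscle phosphoglycerate mutase, Pgam2, gave signals of 2228.1, 1931.3 and 2175.8 on the WT control neuronal arrays. On the knockdown neuronal arrays it gave 76.58, 63.76 and 65.77, and 1 of the 3 was detected. The log2 level fell by 6.44 (SE 0.13, limma adjusted p = 7.92e-16), and this value is a fitted one, since 2 of the 3 knockdown arrays did not detect the probe. Muscle enolase, Eno3, gave 4417.6, 2972.6 and 3721.3 in WT control neuronal cells and 132.02, 125.45 and 144.2 in knockdown neuronal cells, where all 3 arrays detected it. It was 46.5-fold lower in knockdown cells (log2 difference -5.54, SE 0.11, limma adjusted p = 2.8e-16). All knockdown arrays of both genes lay far below all WT control arrays.

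Aldoa, Pfkm and Ldha, the forms that cells other than muscle also use, moved little at the neuronal stage beside these 4. Aldolase A had signals of 7268.3, 5430.1 and 6710.9 in WT control and of 4332.5, 3743.2 and 4200.5 in knockdown neuronal cells, with no overlap. Its log2 level was lower by 1.55-fold (-0.63, SE 0.07, limma adjusted p = 5.16e-07), just past the 1.5-fold minimum. Ldha had 8345.1, 6570.4 and 7910.0 against 5099.0, 5069.2 and 5278.0. Its log2 difference of -0.50 (SE 0.05, limma adjusted p = 6.92e-07) was 1.41-fold and so under the fold minimum, although the groups did not overlap. Pfkm, with 4957.7, 4236.7 and 4668.9 against 4142.9, 4316.0 and 4456.7, overlapped between the groups. Its difference was -0.05 (SE 0.06, limma adjusted p = 0.501), and its other 2 probes gave -0.07 and -0.19 with no call.

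The brain forms went the other way or did not pass the test. Brain creatine kinase, Ckb, had signals of 14996, 11700 and 13648 in WT control and 23183, 23099 and 23878 in knockdown neuronal cells. It was 1.68-fold higher in knockdown cells (log2 difference 0.75, SE 0.06, limma adjusted p = 7.48e-09), and the groups did not overlap. Neuronal enolase, Eno2, gave 692.04, 543.0 and 641.64 in WT control and 635.03, 631.49 and 657.63 in knockdown neuronal cells. These overlap, and the log2 difference was 0.07 (SE 0.09, limma adjusted p = 0.560). Of the 9 members tested at the neuronal stage, 5 fell (Ckm, Pygm, Pgam2, Eno3 and Aldoa) and 1 rose (Ckb). Among all probes tested there, 27.4% were called, and 6 of the 9 members were. Ckm and Pygm passed the detection filter only through the WT control arrays, so only a lower call was open to them. The 6 calls and the median include both genes. The median log2 change was -0.63 over the members and 0.01 over all probes tested. All 6 calls held without any single array.

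**Figure D3:**
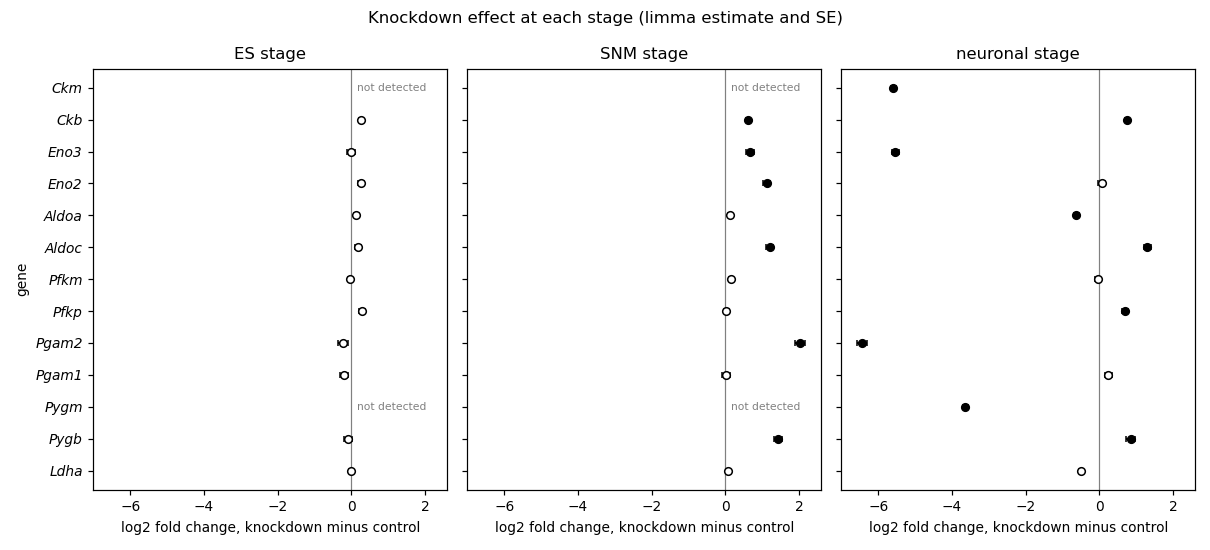
Log2 fold change of HPRT-knockdown minus WT control cells (x axis) at the 3 stages for 13 isozyme genes (y axis), with the limma estimate and its SE. Filled points were called at an adjusted p under 0.05 and at least 1.5-fold; at the neuronal stage Ckm, Pygm, Pgam2 and Eno3 lie farthest to the left, the first 2 as fitted values against undetected arrays, and Ckb, Aldoc, Pfkp and Pygb lie to the right of 0.

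At the SNM stage Pgam2 and Eno3 were higher in knockdown than in WT control cells. Pgam2 had signals of 87.71, 91.19 and 92.44 in WT control SNM and of 234.44, 230.08 and 232.32 in knockdown SNM, a rise of 4.09-fold (log2 2.03, SE 0.13, limma adjusted p = 4.11e-09). Eno3 had 146.84, 163.98 and 130.44 against 225.49, 186.53 and 217.35, a rise of 1.58-fold (log2 0.66, SE 0.11, limma adjusted p = 6.77e-05). Both genes were higher on every knockdown array. Ckm and Pygm were detected on no SNM array. Of 17 skeletal muscle markers 13 rose in knockdown SNM, where 19.9% of all probes tested were called. Their summed signals were 4824 to 5319.2 against 3029.8 to 3160.6 in WT control SNM. Myog, Myod1, Ttn and Casq2 passed the detection filter there only through the knockdown arrays, so only a rise was open to them. The part of the skeletal muscle markers in the rise of Pgam2 and Eno3 was not tested.

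Eno2 and Ckb rose at the SNM stage too. Eno2 had signals of 298.06, 286.65 and 256.63 in WT control SNM and of 594.73, 522.14 and 516.41 in knockdown SNM. It rose by 2.18-fold (log2 1.12, SE 0.09, limma adjusted p = 6.35e-08). Ckb had 15978, 17897 and 14798 against 24104, 22801 and 22938, a rise of 1.54-fold (log2 0.62, SE 0.06, limma adjusted p = 1.38e-07). Aldoa, Pfkm and Ldha gave log2 differences of 0.12, 0.16 and 0.07 with no call. In all, 4 of the 7 members tested rose and none fell, where 19.9% of all probes tested were called. The median was 0.62 over the members and -0.04 over all probes. The calls of Eno3 and Ckb lie near the fold minimum. Without the third WT control SNM array their log2 changes were 0.53 and 0.57 and 2 members, Pgam2 and Eno2, remained called, as they did under scaling to the 75th percentile.

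At the ES stage no member of the 7 tested was called, in a comparison that called 1.68% of all probes. limma gave unadjusted p-values under 0.05 for 2 of them, Ckb and Eno2, both short of the fold minimum, and 0 were called under every alternative. Ckb was the member with the smallest adjusted p (0.0058), with signals of 4691.8, 4428.4 and 4824.7 in WT control and 5436.6, 6740.3 and 5308.8 in knockdown ES cells. Its log2 difference of 0.27 (SE 0.06) amounts to 1.20-fold. Pgam2 (-0.23, SE 0.13) and Eno2 (0.26, SE 0.09) had adjusted limma p-values of 0.298 and 0.0843. The log2 differences of Eno3 and Ldha were -0.01 and 0.00 to 2 decimals, and their sign depends on the scaling. Skeletal muscle markers had summed signals of 2586.8 to 2768.3 and 2579.2 to 3019.1 in the WT control and knockdown ES cells.

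The comparison of each muscle form with its partner asks whether the forms of an enzyme changed unequally. Different probes have different brightness per RNA molecule, so their levels were not compared, and only the change of their difference was. Of the partner forms, Ckb, Aldoc, Pygb and Pfkp were higher in knockdown neuronal cells, while Eno2 and Pgam1 did not pass the test. Brain aldolase, Aldoc, was 2.46-fold higher (signals of 1845.2, 1315.3 and 1612.6 in WT control against 3880.0, 3653.5 and 3648.6 in knockdown cells, limma adjusted p = 4.07e-09). Its dimmer second probe was called higher too, and was undetected in WT control neuronal cells. Brain glycogen phosphorylase, Pygb, was 1.81-fold higher (676.87, 430.88 and 584.25 against 932.94, 892.28 and 989.54, limma adjusted p = 1.09e-05). Pfkp was 1.62-fold higher (limma adjusted p = 8.03e-07). Pgam1 differed by 0.24 on the log2 scale (SE 0.11, limma adjusted p = 0.0572), and Eno1, the general enolase, by 0.27, without a call.

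**Figure D4:**
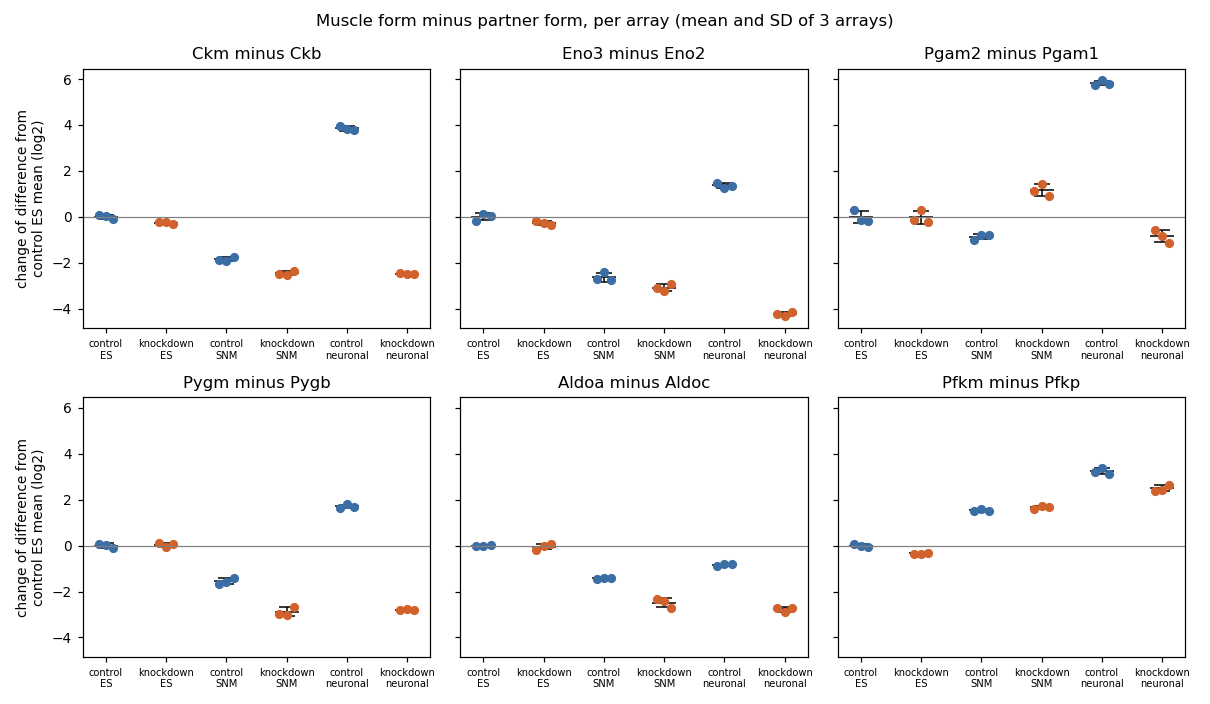
Per array, the log2 signal of the muscle form minus that of its partner form, shown as the change from the mean of the WT control ES arrays (y axis) in 6 conditions (x axis; blue WT control, orange HPRT-knockdown). Bars give the mean and SD of 3 arrays, and arrays on which Ckm, Pygm or Pgam2 was not detected enter with their background signal; at the neuronal stage the WT control arrays lie above the knockdown arrays in all 6 panels.

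The difference between muscle form and partner was lower in knockdown than in WT control neuronal cells for all 6 pairs. How often other pairs of probes part in this way was not tested, so the count has no background beside it. Ckm and Pygm were detected in WT control neuronal cells alone, so only a fall of the muscle form was open in their pairs. The change of the difference was -5.61 on the log2 scale for Eno3 against Eno2, -1.93 for Aldoa against Aldoc and -0.74 for Pfkm against Pfkp. For Ckm against Ckb, Pygm against Pygb and Pgam2 against Pgam1 no size is given, because the muscle form was undetected on 3, 3 and 2 of the 3 knockdown neuronal arrays. The exact two-sided permutation p was 0.1 for each, the smallest that 3 against 3 arrays can give, and 0.13 after adjustment over the 30 pair comparisons made. No pair comparison can therefore pass the threshold. At the SNM stage the order differed among enzymes. Pgam2 gained on Pgam1 by 2.02 in knockdown cells, while the change was -1.07 for Aldoa against Aldoc and -0.46 for Eno3 against Eno2. Pygb was 2.69-fold and Aldoc 2.29-fold higher in knockdown SNM (limma adjusted p = 5.78e-08 and 2.48e-08). With the muscle forms undetected at this stage, the pair values of Ckm and Pygm follow their partners alone and are not given.

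From the ES to the SNM stage the brain forms and Ldha rose in both populations. In WT control cells Ckb rose by 3.46-fold, Eno2 by 3.24-fold, Ldha by 1.75-fold and Pfkm by 1.66-fold, while Eno3 fell by 0.93 and Pgam2 by 0.71 on the log2 scale. That is 4 members higher and 2 lower of 7 tested, in a comparison with 49.1% of all probes called. Without the first WT control ES array, Pgam2 fell by 0.58 and was not called. In knockdown cells 5 of 7 rose, where 57.3% of all probes were called: Eno2 by 5.89-fold, Ckb by 4.43-fold, Pgam2 by 2.93-fold, Pfkm by 1.91-fold and Ldha by 1.84-fold. Pgam2 thus fell in one population and rose in the other.

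From the SNM to the neuronal stage the populations separated. In WT control cells 6 of 9 members rose and none fell, where 29.4% of all probes were called. Ckm and Pygm passed the detection filter there only through the neuronal arrays, so only a rise was open to them. Ckm rose by at least 34.2-fold, Pygm by at least 8.95-fold, Pgam2 by 51.2-fold, Eno3 by 41.0-fold, Eno2 by 2.58-fold and Pfkm by 2.09-fold. Of the 17 skeletal muscle markers on the array 16 rose in the same comparison. Myog, Myod1, Ttn and Casq2 also passed the filter there only through the neuronal arrays, so only a rise was open to them. In knockdown cells 1 of 7 members rose and 3 fell, where 28.6% of all probes were called. Pfkm rose by 1.81-fold, Pgam2 fell by 2.79, Eno3 by 0.84 and Ldha by 1.06 on the log2 scale. Pgam2 was at background on 2 of the 3 knockdown neuronal arrays. Of the skeletal muscle markers 15 of 17 fell. All knockdown neuronal arrays detected 9 of the 17. The rest passed the filter only through the SNM arrays, so only a fall was open to them. By its brightest probe, Pfkm was the one member called higher, at the 1.5-fold minimum, at every step in both populations. The dimmest Pfkm probe was not called from the ES to the SNM stage, with log2 changes of 0.32 in WT control and 0.27 in knockdown cells. Eno2 was called at each step but the last in knockdown cells (log2 0.31, limma adjusted p = 0.00902, under the fold minimum). The level of Pfkm went from 10.40 ± 0.06 to 11.14 ± 0.07 and 12.20 ± 0.05 in WT control cells and from 10.36 ± 0.04 to 11.30 ± 0.09 and 12.15 ± 0.03 in knockdown cells (log2, SD, n = 3).

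Whether the knockdown effect itself differed between stages was tested with an interaction contrast. Between ES and SNM it grew for 3 of 7 members, by 2.26 for Pgam2 (SE 0.19, limma adjusted p = 1.51e-07), 0.86 for Eno2 (SE 0.13, 8.21e-05) and 0.68 for Eno3 (SE 0.15, 0.00186), where 21.3% of all probes were called. Without the third WT control SNM array the value of Eno3 was 0.54 and not called. Between SNM and neuronal stage it fell for 6 of 9 members and grew for none, where 28.6% of all probes were called. Ckm and Pygm passed the detection filter only through the WT control neuronal arrays, so only a fall was open to them. The 6 of 9 include both genes. The log2 value was -6.20 for Eno3 (SE 0.15), -1.06 for Eno2 (SE 0.13) and -0.76 for Aldoa (SE 0.09), each with a limma adjusted p of 5.95e-06 or lower. Pgam2, Ckm and Pygm were also called, with fitted values of -8.47, -5.62 and -3.74 that rest on undetected arrays and are no measure of size. For Pgam2 these are 2 of the 3 knockdown neuronal arrays. Ldha, at -0.57 (SE 0.08), stayed under the fold minimum, and passed it at -0.61 without the third knockdown SNM array. Ckb, at 0.12, did not pass the test, and its rise in knockdown cells was 0.62 at the SNM and 0.75 at the neuronal stage.

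The order of the 6 conditions differed by gene. Levels of Eno3 ran from WT control neuronal (11.88) through the 2 ES conditions (7.46 and 7.44, which overlap) and knockdown SNM (7.19) to WT control SNM (6.52) and knockdown neuronal cells (6.34), which overlap. Pgam2 ran from WT control neuronal (11.03 ± 0.05) to knockdown SNM (7.39 ± 0.11), the overlapping ES conditions (6.07 and 5.84) and WT control SNM (5.36), with knockdown neuronal cells last (4.60 ± 0.28, 1 of 3 arrays detected). Ckb was highest in knockdown neuronal and SNM cells (14.58 and 14.55, overlapping), then in WT control SNM and neuronal cells (13.93 and 13.83, overlapping), then in ES cells (12.40 and 12.13). Eno2 was highest in knockdown and WT control neuronal cells (9.19 and 9.12, overlapping), followed by 8.88, 7.75, 6.32 and 6.06 in knockdown SNM, WT control SNM, knockdown ES and WT control ES cells, without overlap. Ldha was highest in SNM (13.50 and 13.43, overlapping) and lowest in knockdown neuronal cells (12.43). Aldoa kept within mean levels of 12.07 to 12.70 throughout.

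The other genes of the pathways, none of them a member, were taken from lists of the same pathways. Of 34 glycolysis and lactate genes 31 are on the array. At the neuronal stage 4 of 20 tested rose (Aldoc, Pfkfb4, Pfkp and Fbp1, the last undetected in WT control cells) and 2 fell, the glucose transporters Slc2a4 (-1.15) and Slc2a1 (-0.74), with a median of 0.19 against 0.01 over all probes. Slc2a4 is the insulin-responsive transporter of muscle and fat. At the SNM stage 4 of 22 rose, among them Aldoc, Pfkfb2 and Fbp2, and none fell. Fbp2 passed the filter there only through the knockdown arrays, so only a rise was open to it. The called shares of the list at the neuronal and SNM stages are near those of all probes called, 27.4% and 19.9%. From the SNM to the neuronal stage 8 of 20 fell and 1, Slc2a4, rose in WT control cells (29.4% of all probes called), and 8 of 22 fell and none rose in knockdown cells (28.6%), among them the general forms Pgam1, Eno1, Pfkl and the pyruvate kinase listed as Pkm2 in both. At the ES stage none of 19 was called.

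Of 21 glycogen genes 20 are on the array, and 5 of 16 tested rose at the SNM stage while none fell (19.9% of all probes called), with a median of 0.43 against -0.04 over all probes. Ppp1r3c, which targets protein phosphatase 1 to glycogen, rose most (1.61), followed by Pygb (1.43), Ugp2, Phkg1 and Pygl, the liver phosphorylase. Phkg1 passed the detection filter only through the knockdown arrays, so only a rise was open to it. At the neuronal stage 2 of 15 rose (Pygb and Phkg2) and 3 fell, among them Stbd1 by 2.66 and Pgm5, which was not detected on knockdown arrays, at least 2.27-fold. These 5 of 15 are near the 27.4% of all probes called. Gys1, Epm2a and Pgm5 passed the filter there only through the WT control arrays, so only a fall was open to them. From the ES to the SNM stage 10 of 14 rose in WT control cells (49.1% of all probes called) and 10 of 15 in knockdown cells (57.3%), and none fell. Gys1, Pgm5 and Stbd1 in WT control cells, and Epm2a and Stbd1 in knockdown cells, passed the filter only through the SNM arrays. Only a rise was open to them.

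All 8 further creatine and adenylate genes were called at the neuronal stage, 3 higher and 5 lower, where 27.4% of all probes were. Ampd1, the AMP deaminase of muscle, was at least 15.95-fold lower in knockdown cells, and Ckmt2, the mitochondrial creatine kinase of striated muscle, fell by 2.33. Ampd1 passed the detection filter only through the WT control arrays, so only a fall was open to it. Ak1, Ckmt1 and Gamt fell by 1.08, 1.01 and 0.88. Gatm, which makes the precursor of creatine, rose by 3.32, and Ampd3 and the creatine transporter Slc6a8 rose by 1.49 and 0.66. At the SNM stage 3 of 7 rose, Ckmt2 (0.91), Gamt (0.76) and Ckmt1 (0.72), and none fell. Of 14 hypoxia-inducible genes 10 of 13 tested rose from the ES to the SNM stage in WT control cells (49.1% of all probes called) and 10 of 13 in knockdown cells (57.3%), the step at which Ldha rose. Car9, Bnip3, Egln1 and Adm in WT control cells, and Egln1 in knockdown cells, passed the filter only through the SNM arrays. Only a rise was open to them there. Between knockdown and WT control cells the hypoxia-inducible genes split, with 3 higher and 1 lower of 13 at the SNM stage (19.9% of all probes called) and 6 higher and 4 lower at the neuronal stage (27.4%).

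As a description over the 18 arrays, which share 6 RNA pools, the patterns of the members were alike to different degrees. Ckm and Pygm were undetected on the same 15 arrays, so their r values and nearest symbols describe little more than a high signal in WT control neuronal cells. Pearson's r was 0.996 between Ckm and Pygm, 0.987 between Eno3 and Pygm, 0.974 between Ckm and Eno3, 0.950 between Eno3 and Pgam2 and 0.916 between Ckm and Pgam2. It was 0.936 between Ckb and Eno2 and 0.937 between Eno2 and Pfkm, and 0.11 between Ckm and Ckb. For Aldoa it was 0.881 with Pgam2 and 0.12 with Ckb, and Ldha was not above 0.509 with any other member. Among 16268 symbols, the most similar to Ckm were Myoz1, 2310079P10Rik and Atp1b4 (r of 0.999, 0.999 and 0.998), and to Pygm Dysfip1, Myh4 and 4833419K08Rik (0.996, 0.996 and 0.995). For Eno3 they were scl0002069.1_48, Sypl2 and Myom2 (0.991 to 0.993), and for Pgam2 Nkx2-3, Tnnc2 and Actn2 (0.980 to 0.992). Aldoa had lower values, with Sin3b at 0.947, Myl4 at 0.935 and the embryonic myosin Myh3 at 0.929. Ckb was nearest to Zfand3, LOC381904 and Acsbg1, Eno2 to BC031353, 2310033F14Rik and Sgcb, and Pfkm to Igfbp7, Khk and Larp6, with r of 0.992 to 0.995. Ldha was nearest to the hypoxia-inducible gene Ankrd37 (0.983), then Prdm13 (0.974) and Neurog2 (0.964).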

How the data were processed

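Total RNA of 6 conditions was measured on 18 Illumina mouse bead arrays, 3 per condition. The authors deposited a non-normalized table with a signal intensity and a detection p-value per probe and array, which was used here, together with a probe annotation. A further 72 per-array columns of their normalized table were not used. Background correction by neqc, which infers the negative controls through the detection p-values, was followed by its quantile normalization and log2 step (offset 16; limma 3.58.1, R 4.3.3). A single limma model held all 6 conditions. A probe was tested where each of the 3 arrays of either compared condition had a detection p-value below 0.05. Benjamini-Hochberg adjustment ran over all tested probes, and calls were made at an adjusted p under 0.05 and at least 1.5-fold, two-sided. A gene with several probes is given by its brightest. Where no array of a condition detected a probe, the fold is a lower bound against the lowest detected signal. Same-numbered arrays deviated together (every r over 0.1) for knockdown against control at the SNM stage (0.108 to 0.489). They did so too for SNM to neuronal in knockdown cells (0.139 to 0.522). In the other comparisons not every r passed 0.1. For knockdown against control at the neuronal stage it ran from 0.094 to 0.605. For SNM to neuronal in WT control cells it ran from -0.117 to 0.597. The pairing is by the label numbers. The genes named in the text are the members, their partner forms, the called members of the lists and the 3 symbols closest to each member by r. The members and lists were chosen with earlier results of these data known. Alternatives were scaling to the 75th percentile or quantile normalization (neither with background correction), an offset of 50, no detection filter, a 2-fold minimum, the mean over probes, the methods' test, a replicate block and leaving out single arrays. Single values of some list genes are not reported here. The calculations were tested on simulated data.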

Additional observations from a re-analysis of the deposited data

Results flagged for a closer look

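For 6 of the isozymes the effect of the knockdown differed between stages in the limma interaction contrast, which tests the difference itself. From the ES to the SNM stage the log2 knockdown effect grew by 0.86 for Eno2, 0.68 for Eno3 and 2.26 for Pgam2. From the SNM to the neuronal stage it changed by -1.06 for Eno2, -6.20 for Eno3 and -0.76 for Aldoa. The fitted value of -8.47 for Pgam2 rests on 2 undetected arrays of 3 in knockdown neuronal cells, and those of -5.62 for Ckm and -3.74 for Pygm on undetected arrays in 3 of 4 conditions, and they give no size. Only a fall was open to Ckm and Pygm, which were detected in WT control neuronal cells alone. Skeletal muscle markers changed the same way, with 11 of 17 higher and 17 of 17 lower in these contrasts. Myog, Myod1 and Casq2 passed the filter of the first contrast only through knockdown SNM arrays, so only a rise was open to them. In the second, Myog, Myod1, Ttn and Casq2 passed only through knockdown SNM and WT control neuronal arrays, so only a fall was open to them. Of all probes tested, 21.3% were called in the first contrast and 28.6% in the second. The part of the muscle markers in the isozyme values was not tested.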

How the results depend on the processing

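Of the comparisons of knockdown with WT control cells, the neuronal stage gave 6 called members under each alternative except a 2-fold minimum, which left 4. At the SNM stage 2 of the 4 calls remained under scaling to the 75th percentile and 2 under the 2-fold minimum, and 2 to 4 without single arrays. From ES to SNM in WT control cells the 6 calls became 3 and 2 under these settings and 5 to 6 without single arrays. The 2-fold minimum left 3 of 5 calls from ES to SNM and 2 of 4 from SNM to neuronal in knockdown cells, and 1 of 3 in the SNM minus ES interaction. Some uncalled values changed sign with the 75th percentile: Eno3 (0.0051) and Ldha (0.0026) at the ES stage, Aldoa (-0.076) and Ldha (-0.12) at the SNM stage, Aldoa from ES to SNM (-0.094 in WT control, -0.31 in knockdown cells) and Ldha in the SNM minus ES interaction (-0.12). The value of -0.31 for Aldoa stands against 0.13 with neqc. Without single arrays, Eno3 and Ldha at the ES stage ran from -0.049 to 0.013 and from -0.029 to 0.036, and the interaction of Aldoa from -0.056 to 0.027. The cause of these changes was not tested. With the replicate block, which takes up the pairing, 4 SNM, 6 neuronal and 4 SNM to neuronal (knockdown cells) members were called, and no call changed. The count over all probes moved by more than 1.5 times with several settings. At the ES stage 310 probes were called, against 57 with quantile normalization, 56 with the 75th percentile, 81 with the offset of 50, 25 with the 2-fold minimum and 78 with the methods' test after adjustment. At the SNM stage 4127 became 2326, 2452, 2561 and 1267 under the first 4 of these. The 5732 of the neuronal stage became 3690, 3760 and 2636 with quantile normalization, the 75th percentile and the 2-fold minimum. Under the same 3 settings the step from SNM to neuronal gave 3781, 4006 and 2485 for 6088 in WT control and 3820, 3854 and 2649 for 6051 in knockdown cells. The 2-fold minimum left 5659 of 10167 and 7560 of 12292 from ES to SNM in the 2 populations. The SNM minus ES interaction went from 4721 to 2564, 2938, 2848 and 1491 with quantile normalization, the 75th percentile, the offset and the 2-fold minimum, and the neuronal minus SNM interaction from 6331 to 4025 and 3051 with quantile normalization and the 2-fold minimum. Precision is limited by 3 arrays of 1 RNA pool per condition.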
